A study of Mus musculus with 2 samples.

Results

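The cyclin D, Rb and E2F genes are 10 of the 32285 genes counted in each library. They were taken by name, whatever their values, and comprise the pocket protein genes Rb1, Rbl1 and Rbl2, the E2F factors E2f1 and E2f2, the D-type cyclins Ccnd1, Ccnd2 and Ccnd3, and the kinases Cdk4 and Cdk6. All 10 had UMIs (unique molecular identifiers, which count RNA molecules) in both libraries. The study asked how dabrafenib (DAB), an inhibitor of mutant BRAF, affects myeloid-derived suppressor cells (MDSC), immature myeloid cells that restrain T cells. Bone marrow of C57BL/6 females, 10 weeks old, was cultured for 4 days to give MDSCs. Every culture received 50 ng/mL of GM-CSF and as much IL-6, and either DAB at 1.5 µmol/L or DMSO, and no allele was changed. Each condition gave 1 library of transcript 5′ ends, and the sources used here do not give the number of mice behind it. No test between DMSO and DAB was therefore possible, and the 95% intervals given with the values cover counting error only.

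D-type cyclins are made in response to growth factor signals, including those that run through RAF, MEK and ERK. They bind CDK4 or CDK6, and the complexes phosphorylate the retinoblastoma protein and its relatives p107 (Rbl1) and p130 (Rbl2). The unphosphorylated pocket proteins hold E2F factors and keep genes of DNA replication silent. Phosphorylation frees E2F1 and E2F2, which activate those genes as cells enter S phase. Blood-forming cells are known to use mainly cyclins D2 and D3, with CDK6.

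E2F factors are known to bind motifs such as TTTNNCGC, and Rbl1 and E2f2 are known E2F target genes. The RefSeq promoter table for GRCm38.p6 gave a window of 300 bases, 250 before the gene's start and 50 after it, for 7 of the 10 genes. It held none for Rb1, Ccnd1 and Ccnd2. The motif was searched on both strands. The Rbl1 window had 2 matches, both on its own strand, that began 18 and 8 bases before the start. The E2f2 window also had 2 on its own strand, which began at bases 4 and 39 from the start. That start is RefSeq's (base 136172274), and the GENCODE start used for E2f2 in the results (base 136172394) lies downstream of the whole window. The Cdk6 window had 1 match, and the windows of Rbl2, E2f1, Ccnd3 and Cdk4 and a further E2f2 window had none. The E2f1 window, set by a RefSeq start at base 154569426, lies inside the GENCODE gene, which starts at base 154569892 on the minus strand. The Cdk6 window likewise lies inside its GENCODE gene, which starts at base 3341485. Sequence before those GENCODE starts was not searched. Of all 32851 windows of this length, 5.17% held at least 1 match and 0.326% at least 2. The windows of Rbl1 and E2f2 are shown because they carry the motif and both genes stood higher in cycling cells. That of Rbl2 is shown because it is a close relative of Rbl1 and has no match. Rbl2 also stood higher in cycling over other cells, with a log2 ratio of 0.53 (0.41 to 0.65) in DMSO and 0.31 (0.19 to 0.43) in DAB. E2f1 and Cdk4, without a match in the windows searched, stood higher there as well. Whether the motif goes with the level in cycling cells was not tested. The sequences run 5′ to 3′ on each gene's strand, with the matches in capitals. They lie at chr2:157204485-157204784 (minus strand), chr4:136172024-136172323 (plus strand) and chr8:91069807-91070106 (plus strand). A match is a description of letters, not a bound site.
Rbl1: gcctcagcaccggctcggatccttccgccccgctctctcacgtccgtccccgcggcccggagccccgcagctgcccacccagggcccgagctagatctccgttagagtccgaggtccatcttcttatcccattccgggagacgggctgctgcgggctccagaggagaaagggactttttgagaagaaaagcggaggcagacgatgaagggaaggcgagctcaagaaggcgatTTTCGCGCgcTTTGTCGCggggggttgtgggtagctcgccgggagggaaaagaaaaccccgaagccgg
E2f2: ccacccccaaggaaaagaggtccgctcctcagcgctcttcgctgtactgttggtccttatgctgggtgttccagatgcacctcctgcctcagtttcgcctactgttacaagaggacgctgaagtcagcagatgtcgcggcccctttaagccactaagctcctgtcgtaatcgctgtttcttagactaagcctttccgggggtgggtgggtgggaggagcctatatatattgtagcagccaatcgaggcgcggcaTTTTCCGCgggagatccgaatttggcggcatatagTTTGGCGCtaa
Rbl2: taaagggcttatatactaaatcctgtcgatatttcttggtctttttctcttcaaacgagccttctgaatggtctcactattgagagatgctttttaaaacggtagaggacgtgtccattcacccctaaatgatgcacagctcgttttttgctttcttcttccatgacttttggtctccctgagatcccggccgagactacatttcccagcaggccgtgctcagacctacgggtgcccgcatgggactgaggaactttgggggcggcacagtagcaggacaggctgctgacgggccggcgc

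After filtering, the DMSO library had 9032 cells with 92569319 UMIs (median 7523 per cell) and the DAB library 10476 cells with 139803695 UMIs (median 9418). The libraries shared 152 cell barcodes as deposited and 121 among the cells kept, and without those the 10 genes gave the same count past the fold. Levels are given in CPM, the UMIs of a gene scaled to a common total of UMIs per library or class. Each molecule was counted from its 5′ end, so levels were not divided by gene length, and a gene is compared with itself across cells and libraries rather than with other genes. A gene was called past the fold where its log2 ratio of DAB over DMSO was at least 0.5 in size, its counting interval left out 0, and it had at least 100 UMIs in both libraries together. Of markers of the labelled cells, Ptprc (CD45) was at 249 CPM in DMSO and 205 in DAB, Itgam (CD11b) at 419 and 537, Ly6g, which marks granulocytic MDSCs, at 142 and 105, and Ly6c2 at 350.4 and 618. Clustering, for which the 10 genes and the other pathway genes were not used, gave 24 clusters, of which 22 had at least 100 cells in each library. A cluster received a class name, written with "-like", only from its markers. Of the classes, 9 had at least 100 cells in each library, and orders of classes are given among these 9. Clusters with no name held 49.97% of DMSO cells and 43.9% of DAB cells. The immature monocyte-like class (cluster A) had Mmp12, Lpl and Fn1 among its 10 leading genes, but also Prg2 and Cpa3, markers of eosinophils and of basophils or mast cells. A finer clustering put 105 of its 1055 DMSO cells and 349 of its 1264 DAB cells in an unnamed cluster led by Prg2, so its make-up differed between the libraries. Without those cells the log2 ratio of Ccnd1 in this class was 0.84 (0.66 to 1.03), against 0.54 (0.37 to 0.72) with them. That of Rbl2 was -0.61 (-0.81 to -0.41), past the fold, against -0.45 (-0.62 to -0.27). The other 8 genes stayed on the same side of the fold. The intermediate granulocyte-like class was mostly cluster G in DMSO (769 of 942 cells) and mostly cluster Q in DAB (308 of 597). In summed cells, fewer expressing cells and less RNA per cell cannot be told apart.

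Over all cells, 5 of the 10 genes were past the fold, against 30.1% of the 13324 genes tested. Ccnd1 and Ccnd2 were higher in DAB, and Rb1, Rbl2 and E2f2 were lower. Rbl1, E2f1, Ccnd3, Cdk4 and Cdk6 were not past the fold. The median log2 ratio of all genes tested was -0.01.

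**Figure D1:**
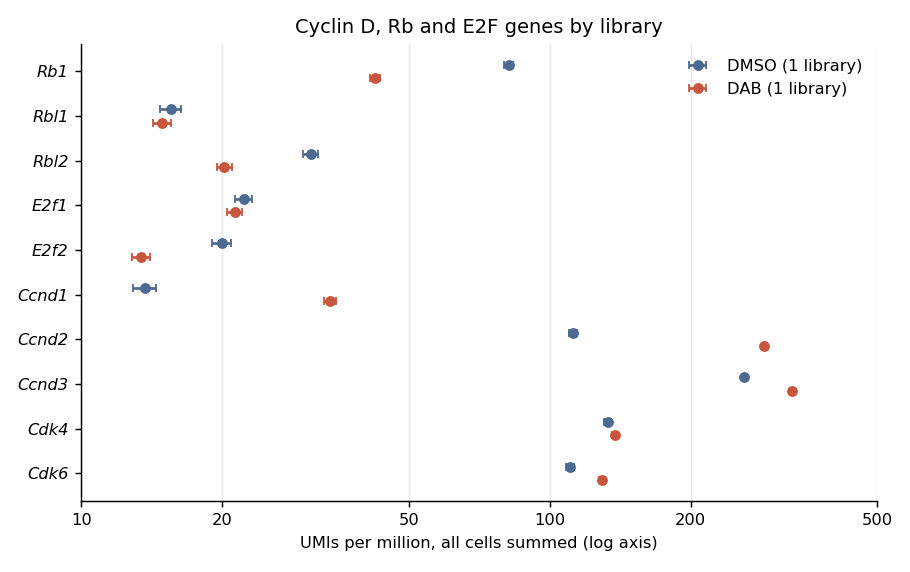
Level of each of the 10 genes in the DMSO and the DAB library, in CPM over all cells on a log axis, with 95% Poisson intervals of the summed UMIs (counting error only, 1 library each). Rb1 is lower in DAB (81.9 against 42.4) and Ccnd2 higher (112 against 287), while the points of Rbl1, E2f1 and Cdk4 lie close together.

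Rb1 encodes the retinoblastoma protein, the founding pocket protein. It gave 7578 UMIs or 81.9 (80.03 to 83.7) CPM in DMSO and 5929 UMIs or 42.4 (41.3 to 43.5) CPM in DAB, a log2 ratio of -0.95 (-0.998 to -0.90). Rb1 was lower in all 22 clusters, with log2 ratios from -1.25 in cluster G to -0.51 in cluster M, each past the fold. Among 3487 genes that reached 100 UMIs in at least 20 of these clusters, 9 (0.258%), Rb1 included, were past the fold on the low side in every cluster tested. Among the 9 classes, mature PMN-like cells had the highest level in both libraries, 139 (125 to 155) CPM in DMSO and 62.7 (55.1 to 71.1) in DAB. Mature monocyte-like cells had the lowest, 66.6 (61.7 to 71.7) and 34.01 (31.3 to 36.9). Each class overlapped its neighbour in the order in both libraries. B cell-like cells, which are not myeloid, were also lower in DAB, at 109 (85.3 to 136) against 60.7 (46.6 to 77.6). With cells thinned to 1500 UMIs, 11.7% (11.04 to 12.4) of DMSO cells and 7.24% (6.74 to 7.76) of DAB cells had a Rb1 UMI, and without thinning 46.4% and 36.6%. By class, the thinned shares had overlapping intervals in some classes. Immature monocyte-like cells, for example, had 7.95% (6.38 to 9.76) in DMSO and 6.24% (4.96 to 7.73) in DAB. In others they did not overlap, as in mature PMN-like cells with 17.6% (14.9 to 20.6) and 8.52% (6.95 to 10.3).

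Other measures moved with Rb1 between the libraries, and their part in its ratio was not tested. The gene spans 142150 bases (chr14:73183673-73325822, minus strand, GRCm38). The 1042 tested genes that span over 100 and up to 200 kb had a median log2 ratio of -0.10. Of them 18.04% were past the fold on the low side and 11.5% on the high side. For the 3624 genes of up to 10 kb the median was 0.05, and these shares were 16.1% and 17.4%. The 534 genes over 200 kb had a median of -0.07, with 19.1% on the low side and 19.85% on the high side. Cdk6, which spans 189524 bases, had a log2 ratio of 0.23 (0.19 to 0.26). RNAs known to stay in the nucleus were lower in DAB, Malat1 with a log2 ratio of -0.49 and Neat1 with -1.13. Of further genes looked at, Cmss1, Gphn and Camk1d were lower, with -0.67, -0.86 and -0.75. Gapdh was also lower, with -0.49, while Actb and Rplp0 were higher, with 0.39 and 0.27. Cluster M, which has Gm26917 and Neat1 among its leading genes, held the highest Rb1 level, 253 CPM in DMSO and 178 in DAB. It also held the highest levels of Rbl1, Rbl2 and Cdk6 in both libraries, Cdk6 at 446 and 511 CPM. Without it and cluster H, which is led by Gm15564 and Lars2, the log2 ratio of Rb1 over all cells was -0.98. The annotation places Gm17233 in the Rb1 locus on the same strand, and Lpar6 and Rcbtb2 on the other. Of the other members, Rbl2 overlaps Aktip, Ccnd1 overlaps LTO1, Ccnd3 overlaps Bysl and Cdk4 overlaps Tspan31, each protein-coding and on the opposite strand. Genes of other kinds on the opposite strand overlap Rbl1, Rbl2, Ccnd2 and Cdk6.

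Rbl1 (chr2:157145893-157204534, minus strand) and Rbl2 (chr8:91070057-91123844, plus strand) are the relatives of Rb1. Rbl2 (p130), which is known to gather in resting cells, gave 2861 UMIs or 30.9 (29.8 to 32.1) CPM in DMSO and 2823 UMIs or 20.2 (19.5 to 20.95) CPM in DAB, a log2 ratio of -0.61 (-0.69 to -0.54). It was past the fold on the low side in 11 of the 17 clusters that reached 100 UMIs and on the high side in 0. Rbl1 (p107) gave 1436 UMIs or 15.5 (14.7 to 16.3) CPM in DMSO and 2078 UMIs or 14.9 (14.2 to 15.5) CPM in DAB, and its log2 ratio of -0.06 (-0.16 to 0.04) had an interval that held 0. It was past the fold in 1 of 13 clusters, cluster G, at 12.01 CPM in DMSO and 19.6 in DAB. Across classes Rbl1 lay between 9.75 CPM (activated dendritic cell-like) and 23.5 CPM (granulocyte progenitor-like) in DMSO, and neighbouring classes overlapped throughout. In chemokine-high granulocyte-like cells Rb1, Rbl1 and Rbl2 were all past the fold on the low side, Rbl1 with 11.998 (8.65 to 16.2) CPM in DMSO and 7.17 (5.76 to 8.83) in DAB. Within single clusters, however, Rbl1 was past the fold on the low side in 0 of the 13 that reached 100 UMIs. The part of the cluster mix in the class value was not tested. Rbl2 stood at 53.6 (44.9 to 63.6) CPM in mature PMN-like cells of DMSO and 33.3 (27.8 to 39.5) in those of DAB. In activated dendritic cell-like cells it did not reach the fold, with 39.4 (32.3 to 47.5) and 37.6 (29.3 to 47.6).

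E2f1 (chr2:154559407-154569892, minus strand) and E2f2 (chr4:136172394-136196057, plus strand) encode activating E2F factors. E2f2 gave 1844 UMIs or 19.9 (19.02 to 20.9) CPM in DMSO and 1876 UMIs or 13.4 (12.8 to 14.04) CPM in DAB, a log2 ratio of -0.57 (-0.66 to -0.48). It was past the fold on the low side in 5 of 10 clusters, and with clusters weighted alike in both libraries its log2 ratio was -0.48, under the fold. E2f1 gave 22.2 (21.2 to 23.2) CPM in DMSO and 21.3 (20.5 to 22.04) in DAB, with a log2 ratio of -0.06 (-0.14 to 0.02). Cluster I was the 1 of 14 past the fold for E2f1, at 25.8 CPM in DMSO and 18.2 in DAB. Among the 9 classes, intermediate granulocyte-like cells had the highest E2f2 level, 38.4 (33.9 to 43.3) CPM in DMSO and 27.8 (24.02 to 32.04) in DAB. B cell-like cells were next and overlapping. Basophil or mast cell-like cells, too few to be among the 9, had higher values whose intervals overlapped those of intermediate granulocyte-like cells. They were at 51.2 (31.7 to 78.2) and 39.96 (27.7 to 55.8) CPM, from 21 UMIs in 54 DMSO cells and 34 in 87 DAB cells. For E2f1 granulocyte progenitor-like cells came first, 31.8 (24.5 to 40.5) CPM and 33.4 (27.02 to 40.9), with immature monocyte-like cells next and overlapping. Activated dendritic cell-like cells were last for both genes in both libraries, with 13 UMIs of E2f2 in DMSO and 2 in DAB.

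Ccnd2 (chr6:127125162-127152193, minus strand) encodes cyclin D2. It gave 10397 UMIs or 112 (110.2 to 114) CPM in DMSO and 40082 UMIs or 287 (284 to 289.5) CPM in DAB, a log2 ratio of 1.35 (1.32 to 1.38). It was higher in DAB in 22 of 22 clusters and past the fold in 20 of the 21 that reached 100 UMIs. The exception was cluster E, of the chemokine-high granulocyte-like class, with a log2 ratio of 0.32 (0.10 to 0.55). Of the 3487 genes measured in at least 20 clusters, 10 (0.287%) were past the fold on the high side in every cluster tested. Ccnd2 was not among them. With 1 exception allowed, as Ccnd2 itself had, the count was 22 (0.631%), Ccnd2 included. This rule follows the gene's own result, so the share is a description only. Cluster O, which has Ppbp and Tspan18 as leading genes and no name, had the highest ratio, with 106 CPM in DMSO and 532 in DAB. In the immature monocyte-like class the level was 107 (103 to 112) CPM in DMSO and 355 (348 to 362) in DAB. In the mature monocyte-like class, marked by MHC class II genes, it was 174 (166 to 182) and 441 (431 to 451). Activated dendritic cell-like cells were highest in both libraries, 422 (398 to 447) and 851 (809 to 894), and overlapped no other class. Mature PMN-like cells, among the lowest, were at 47.5 (39.3 to 56.95) and 76.9 (68.4 to 86.1). With cells thinned to 1500 UMIs, the share with a Ccnd2 UMI was 10.96% (10.3 to 11.6) in DMSO and 22.2% (21.4 to 23.02) in DAB, and 38.6% and 57.3% without thinning.

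Ccnd1 (chr7:144929931-144939925, minus strand) encodes cyclin D1. It gave 1264 UMIs or 13.7 (12.9 to 14.4) CPM in DMSO and 4744 UMIs or 33.9 (32.97 to 34.9) CPM in DAB, a log2 ratio of 1.31 (1.22 to 1.40). Its level differed widely between classes. In mature monocyte-like cells it was 29.1 (25.9 to 32.5) CPM in DMSO and 109.6 (105 to 115) in DAB. Macrophage-like cells, which have C1q genes among their leading genes, had 57.5 (46.4 to 70.3) and 119 (104 to 136). Activated dendritic cell-like cells had 21 UMIs or 7.59 (4.696 to 11.6) CPM in DMSO and 179 UMIs or 97.6 (83.9 to 113) CPM in DAB. These were the higher classes in DAB, and their DAB intervals overlapped. Immature monocyte-like cells were also past the fold, at 20.6 (18.6 to 22.7) and 29.996 (28.02 to 32.1). Mature PMN-like cells had 1 UMI in DMSO and 3 in DAB, and intermediate granulocyte-like cells 6 and 5. These granulocyte classes thus gave almost no Ccnd1 at this depth, while granulocyte progenitor-like cells had 3.43 (1.38 to 7.06) CPM in DMSO and 15.7 (11.4 to 21.01) in DAB. B cell-like cells had none in either library, 0 of 129 DMSO and 0 of 173 DAB cells when thinned, which at 3 cells allows shares of cells with a UMI of up to 2.33% and 1.73% (exact upper bounds 2.82% and 2.11%). By the same thinning, 4.501% (2.87 to 6.68) of mature monocyte-like DMSO cells and 17.7% (14.6 to 21.1) of the DAB cells had a Ccnd1 UMI, and 29.98% and 78.3% without it. In activated dendritic cell-like cells these shares were 0.617% (0.0156 to 3.39) and 7.21% (3.16 to 13.7), and 5.49% and 26.8% without thinning. The 179 DAB UMIs of that class thus came from a minority of its 112 cells. Of all Ccnd1 UMIs, mature monocyte-like cells supplied 23.97% in DMSO and 39.7% in DAB, and they held 11.3% and 12.3% of the UMIs of all genes. In cluster O, where Ccnd1 is among the 10 leading genes, the level was 19.4 CPM in DMSO and 95.5 in DAB.

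Ccnd3 (chr17:47505051-47599691, plus strand) encodes cyclin D3. It gave 24111 UMIs or 260.5 (257 to 264) CPM in DMSO and 46065 UMIs or 329.5 (326 to 333) CPM in DAB. The log2 ratio of 0.34 (0.32 to 0.36) was not past the fold and came to 0.04 when every cell counted equally. With cells thinned to 1500 UMIs its share of cells with a UMI was 29.8% (28.8 to 30.7) in DMSO and 29.8% (28.9 to 30.7) in DAB, and 70.7% and 70.7% without thinning. Its direction differed between classes. It was past the fold on the high side in immature monocyte-like cells, 194 (188 to 200.1) CPM in DMSO and 352 (346 to 359) in DAB, and in macrophage-like cells, 105 (89.4 to 121) and 170.1 (152 to 190.2). The thinned shares of cells with a Ccnd3 UMI were 22.8% (20.3 to 25.5) and 35.9% (33.3 to 38.65) in the former. In macrophage-like cells they overlapped, at 15.1% (9.84 to 21.8) and 16.5% (10.7 to 23.97). Ccnd3 went the other way elsewhere. It was past the fold on the low side in activated dendritic cell-like cells, 129 (116 to 143) in DMSO and 76.9 (64.7 to 90.7) in DAB. Intermediate granulocyte-like cells had the highest level, 429.6 (414 to 445) in DMSO and 463 (447 to 479) in DAB, and overlapped no other class.

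**Figure D2:**
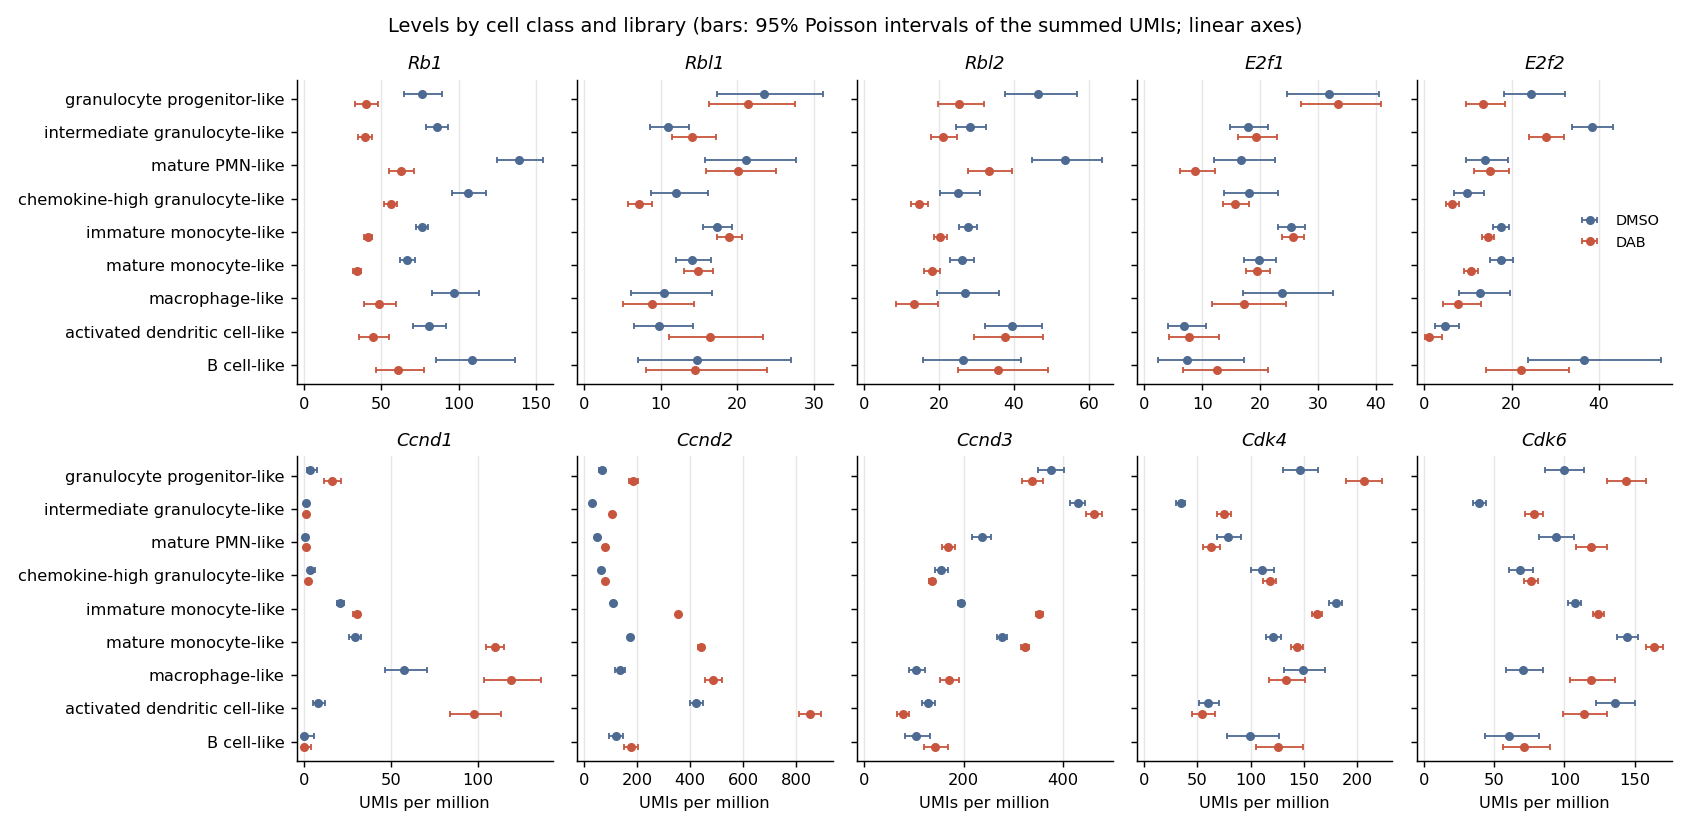
Level of each gene in the 9 classes with at least 100 cells in each library, in CPM on linear axes that differ between panels, for DMSO and DAB with 95% Poisson intervals. Rb1 is lower in DAB in all 9 classes and Ccnd2 higher in all 9, while Ccnd1 is near 0 in intermediate granulocyte-like, mature PMN-like and B cell-like cells.

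The make-up of the D-type cyclin transcripts is a share within a library and does not depend on how libraries are scaled. It does depend on how well each gene's 5′ ends are captured, so a share is compared between libraries and classes, and the order of the 3 genes is not read from it. In DMSO, Ccnd3 supplied 67.4% (66.9 to 67.9) of 35772 cyclin D UMIs, Ccnd2 29.1% (28.6 to 29.5) and Ccnd1 3.53% (3.34 to 3.73). In DAB, Ccnd3 supplied 50.7% (50.4 to 51.01) of 90891, Ccnd2 44.1% (43.8 to 44.4) and Ccnd1 5.22% (5.08 to 5.37). The Ccnd2 share was higher in DAB in all 9 classes. For B cell-like cells the intervals overlapped, 52.98% (44.7 to 61.1) in DMSO and 55.02% (49.5 to 60.5) in DAB. The Ccnd3 share was highest in intermediate granulocyte-like cells, 93.9% (93.04 to 94.7) in DMSO and 81.4% (80.2 to 82.6) in DAB. That class was mostly cluster G in DMSO and mostly cluster Q in DAB, and its shares are not split by cluster here. Within clusters G and Q alike, Ccnd2 was past the fold on the high side and Ccnd3 was not past the fold. In immature monocyte-like cells the Ccnd3 share was 60.3% (59.02 to 61.5) in DMSO and 47.8% (47.1 to 48.5) in DAB, and the Ccnd2 share 33.3% (32.2 to 34.5) and 48.1% (47.5 to 48.8). Among mature monocyte-like cells the share of Ccnd3 was 57.8% (56.4 to 59.1) in DMSO and 37.04% (36.3 to 37.8) in DAB, and the Ccnd2 share 36.2% (34.8 to 37.5) and 50.4% (49.6 to 51.2). The Ccnd2 share was highest in activated dendritic cell-like cells, 75.6% (73.3 to 77.7) and 82.98% (81.2 to 84.7), with Ccnd3 at 23.1% (20.998 to 25.3) in DMSO and 7.50% (6.35 to 8.78) in DAB. Of the 9 classes, macrophage-like cells had the highest Ccnd1 share, 19.4% (15.96 to 23.2) in DMSO and 15.3% (13.5 to 17.3) in DAB.

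**Figure D3:**
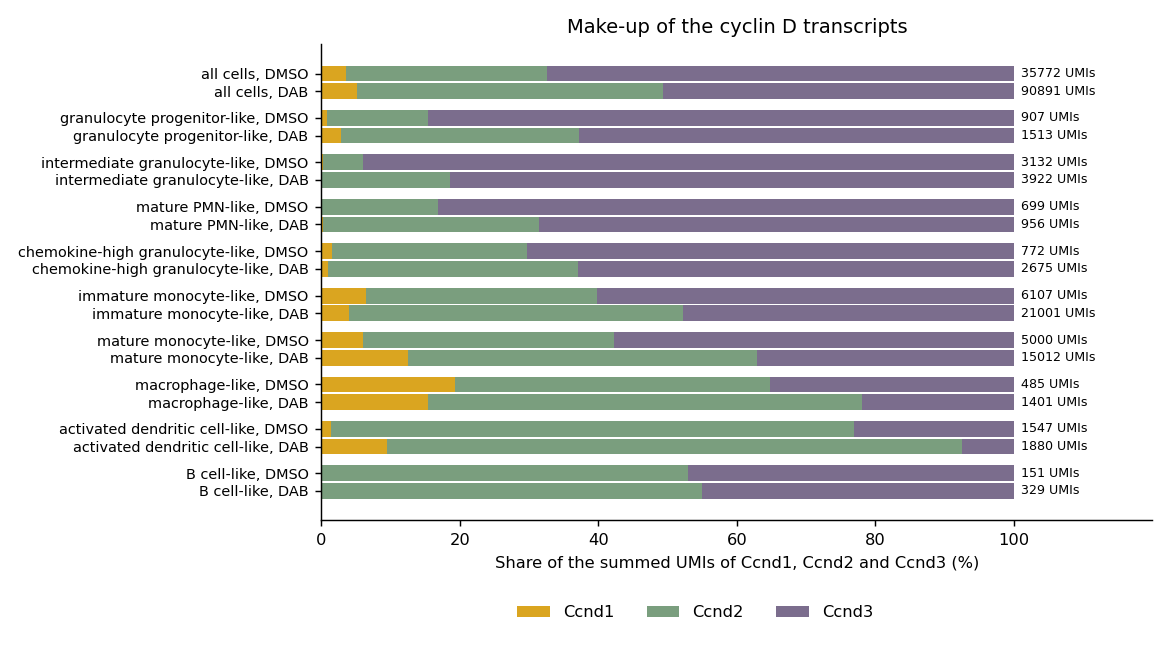
Share of Ccnd1, Ccnd2 and Ccnd3 in the summed UMIs of the 3 genes, in percent, for all cells and the 9 classes in each library, with the number of UMIs at the right of each bar. The Ccnd2 segment is wider in DAB than in DMSO in each class, for example 5.87% in DMSO and 18.4% in DAB in intermediate granulocyte-like cells. Different clusters hold most of that class in each library.

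Cdk4 (chr10:127063534-127067920, plus strand) and Cdk6 (chr5:3341485-3531008, plus strand) encode the kinases that D-type cyclins activate. Over all cells neither was past the fold. Cdk4 gave 133 (131 to 136) CPM in DMSO and 138 (136 to 139.8) in DAB, a log2 ratio of 0.05 (0.02 to 0.08). Cdk6 gave 111 (108 to 113) CPM and 129.6 (128 to 131), a log2 ratio of 0.23 (0.19 to 0.26). Both were past the fold on the high side in intermediate granulocyte-like cells, the class with the lowest level of each in DMSO. There Cdk4 gave 34.02 (29.8 to 38.7) CPM in DMSO and 74.8 (68.4 to 81.5) in DAB, and Cdk6 38.98 (34.4 to 43.95) and 78.1 (71.6 to 84.97). Since different clusters hold most of this class in each library, the ratios were also taken within them. Cdk4 was past the fold within cluster G (32.5 and 63.5 CPM) and within cluster Q (41.7 and 87.9 CPM), whereas Cdk6 was so within cluster G (30.1 and 57.1 CPM) and not within cluster Q (85.3 and 103 CPM). Cluster I, with Stfa2l1, Cstdc4 and Arg1 as leading genes, went the other way for Cdk4, with 187 CPM in DMSO and 121 in DAB. Cdk6 was higher in DAB in 21 of 22 clusters but past the fold in 5, which included macrophage-like cells at 70.3 (58.03 to 84.4) and 119 (104 to 136). The exception was activated dendritic cell-like cells, at 136 (122 to 150.3) and 114 (99.1 to 131). Cdk6 made up 45.4% (44.7 to 46.01) of Cdk4 and Cdk6 UMIs in DMSO and 48.5% (47.95 to 48.97) in DAB. The share was higher in DAB in 5 of the 9 classes and lower in the rest. The rest were intermediate granulocyte-like, mature monocyte-like, activated dendritic cell-like and B cell-like cells. In each of these the log2 ratios of Cdk4 and Cdk6 had overlapping intervals, so a lower share is not set apart from counting error. Among the 5 were mature PMN-like cells, 54.4% (49.5 to 59.2) against 65.4% (61.8 to 68.9), and macrophage-like cells, 31.9% (27.2 to 37.03) against 47.1% (42.5 to 51.8). Granulocyte progenitor-like and chemokine-high granulocyte-like cells were also among the 5, but there both kinases had close log2 ratios with overlapping intervals. Those of Cdk4 and Cdk6 were 0.496 and 0.53 in the former and 0.09 and 0.15 in the latter.

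**Figure D4:**
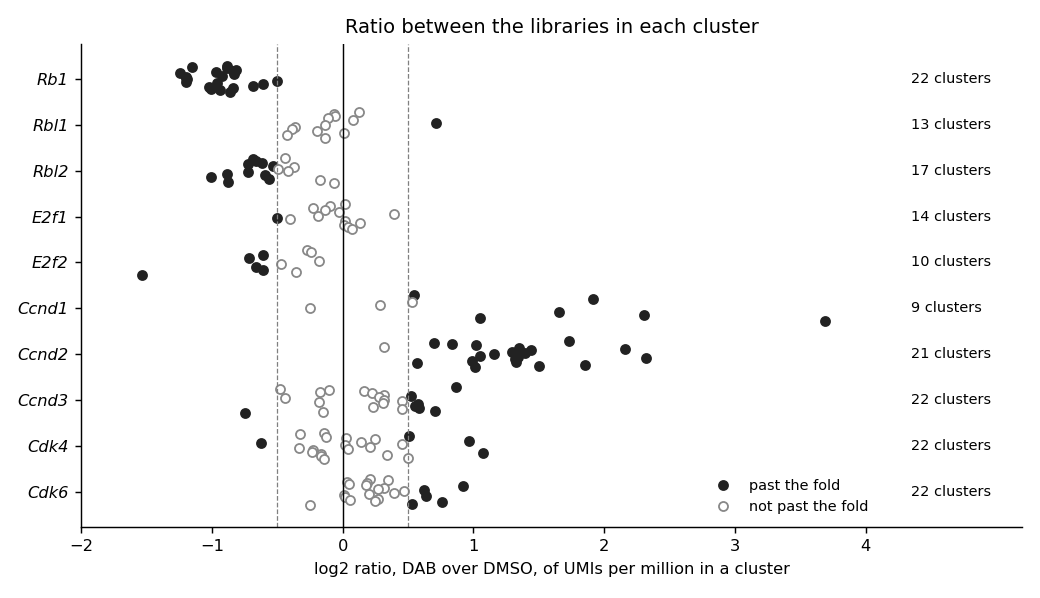
Log2 ratio of DAB over DMSO for each gene in every cluster with at least 100 cells in each library and 100 UMIs of the gene, 1 point per cluster, with filled points past the fold and dashed lines at a log2 ratio of 0.5 in either direction. All 22 Rb1 points lie left of 0 and all 21 Ccnd2 points right of it, while Ccnd3 and Cdk4 have filled points on either side.

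Class by class, the number of the 10 genes past the fold was read beside the share of all genes tested in that class. In granulocyte progenitor-like cells 4 of the 8 genes that reached 100 UMIs were past the fold, against 36.2% of all genes. In intermediate granulocyte-like cells it was 4 of 9, against 41.2%. In mature PMN-like cells it was 3 of 7 (29.8%), while all 4 of the 9 past the fold in chemokine-high granulocyte-like cells were lower (23.2%). Of those 4, E2f2 had a log2 ratio of -0.63 (-1.23 to -0.001), and Rbl1 was past the fold on the low side in 0 of 13 single clusters. Immature monocyte-like cells had 4 of 10 (32.3%) and mature monocyte-like cells 5 of 10 (34.6%). Macrophage-like cells had 5 of 6 (26.7%), 4 of them higher. Activated dendritic cell-like cells had 4 of 7 (25.2%) and B cell-like cells 2 of 5 (32.6%). With 10 genes or fewer per class, such shares say little on their own. Rb1 was among the genes past the fold in all 9 classes, and Ccnd2 in 8, all but the chemokine-high granulocyte-like class.

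To set the genes beside the cell cycle, cells were thinned to 1500 UMIs, and those with at least 3 UMIs from 21 S phase and 21 G2M genes were taken as cycling. None of the 10 genes is on these lists. The lists are of S phase and G2M only, so cells below this cutoff can be in G1, the phase before S phase. They can also be cycling cells with too few list UMIs at this depth. Below they are called other cells or cells not cycling, which does not mean resting cells. The share of cycling cells was 13.9% (13.2 to 14.7) in DMSO and 12.7% (12.03 to 13.3) in DAB, or 49.5% and 53.1% without thinning. Activated dendritic cell-like cells had 5.56% (2.57 to 10.3) and 5.41% (2.01 to 11.4), and mature PMN-like cells 5.36% (3.84 to 7.26) and 7.62% (6.13 to 9.34). How much of such shares comes from free RNA was not tested. Granulocyte progenitor-like cells were highest, at 42.7% (34.6 to 50.99) and 52.99% (43.5 to 62.3). The share of mature monocyte-like cells was higher in DAB, 16.2% (13.2 to 19.7) and 24.03% (20.6 to 27.8), and that of chemokine-high granulocyte-like cells lower, 5.78% (3.84 to 8.301) and 2.79% (2.02 to 3.74). In DMSO 20.4% of all genes tested and in DAB 22.9% were past the fold on the high side in cycling over other cells. The share of all genes that were so in both libraries was not taken. Of the 10 genes 4 were so in both libraries, namely Rbl1, E2f1, E2f2 and Cdk4. Rbl2 was so in DMSO only, with a log2 ratio of 0.53 (0.41 to 0.65) against 0.31 (0.19 to 0.43) in DAB. Rbl1 had 8.85 CPM in other cells and 40.5 in cycling cells of DMSO, a log2 ratio of 2.19 (2.04 to 2.35), and 8.75 and 35.5 CPM in DAB, a log2 ratio of 2.02 (1.89 to 2.15). E2f1 had log2 ratios of 0.86 (0.72 to 0.99) in DMSO and 1.06 (0.96 to 1.17) in DAB, and E2f2 of 0.77 (0.62 to 0.91) and 0.93 (0.80 to 1.07). Those of Cdk4 were 0.65 (0.60 to 0.71) and 0.77 (0.73 to 0.81), and within clusters Cdk4 in DMSO came to the edge of the fold and was not called. Rb1 and Ccnd2 stood lower in cycling cells without passing the fold, Rb1 with -0.18 (-0.27 to -0.10) in DMSO and -0.19 (-0.28 to -0.10) in DAB, and Ccnd2 with -0.39 (-0.46 to -0.31) and -0.19 (-0.23 to -0.16). Within clusters these were -0.19 and -0.09 for Rb1, and -0.37 and -0.43 for Ccnd2. No interval was worked out for the within-cluster ratios, so the -0.09 of Rb1 in DAB is not set apart from 0. The Ccnd2 ratio changed with the setting. In DMSO it was -0.70, beyond 0.5 in size, when cycling cells needed at least 5 list UMIs, and -0.22 at 2. With cells thinned to 3000 UMIs the Ccnd2 ratio was -0.18 in DMSO and -0.04 in DAB.

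Cycling cells were then divided by whether they held more UMIs of the S phase or of the G2M list, which gave 293 and 865 cells in DMSO and 523 and 705 in DAB. In neither group were 39 DMSO and 62 DAB cells with equal counts, which stay in the total of cycling cells. The cells with more S phase UMIs were 24.5% (22.1 to 27.02) of cycling cells in DMSO and 40.5% (37.8 to 43.3) in DAB. Over all cells the S phase list had 465 CPM in DMSO and 589.7 in DAB, with 5 of 21 genes past the fold on the high side and 0 on the low side, against 13.97% and 16.1% of all genes tested. The G2M list had 1092 and 867 CPM, with 6 of 21 on the low side and 0 on the high side. E2f1 was at 60.2 (53.2 to 67.8) CPM with more S phase UMIs and 25.2 (22.7 to 27.9) with more G2M UMIs in DMSO, and at 56.3 (52.1 to 60.7) and 21.9 (19.8 to 24.1) in DAB. In cells not cycling E2f1 was at 19.004 (18.01 to 20.03) in DMSO and 17.03 (16.3 to 17.8) in DAB. Rbl1 had overlapping intervals in the S phase and G2M groups, 42.4 (36.5 to 48.9) and 39.9 (36.7 to 43.3) in DMSO and 35.1 (31.8 to 38.6) and 35.5 (32.8 to 38.3) in DAB. Rbl2 went the other way from E2f1, with 29.5 (24.7 to 35.02) and 43.9 (40.6 to 47.5) in DMSO and 18.8 (16.4 to 21.4) and 26.7 (24.4 to 29.1) in DAB.

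Ccnd1 and Ccnd2 also stood lower in the G2M group. In DMSO Ccnd1 gave 36.95 (31.5 to 43.1) CPM with more S phase UMIs, 8.17 (6.76 to 9.79) with more G2M UMIs and 13.2 in cells not cycling. In DAB it gave 71.1 (66.4 to 76.02), 25.3 (23.1 to 27.7) and 31.4. Ccnd2 gave 157 (145 to 169), 68.9 (64.6 to 73.3) and 119 CPM in DMSO and 351 (340.3 to 362), 201 (195 to 208) and 296 in DAB. The log2 ratio of the S phase over the G2M group was 2.18 (1.83 to 2.53) for Ccnd1 in DMSO and 1.49 (1.33 to 1.66) in DAB, and within clusters 2.38 and 1.24. For Ccnd2 it was 1.19 (1.05 to 1.33) and 0.80 (0.74 to 0.87), and within clusters 1.21 and 0.74. Within clusters the S phase group was thus above the G2M group for both cyclins, and cells not cycling were not part of that comparison. For Rb1 the ratio was -0.33 (-0.52 to -0.13) in DMSO and 0.27 (0.10 to 0.44) in DAB, and within clusters -0.21 and 0.39, so its sign differed between the libraries. That difference was not tested. Between the libraries, Rb1 had log2 ratios of DAB over DMSO of -0.95 (-1.07 to -0.84) in cycling and -0.94 (-0.9999 to -0.89) in other cells. For Ccnd2 they were 1.51 (1.44 to 1.59) and 1.32 (1.28 to 1.35), and for Ccnd1 1.46 (1.28 to 1.64) and 1.25 (1.15 to 1.36).

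**Figure D5:**
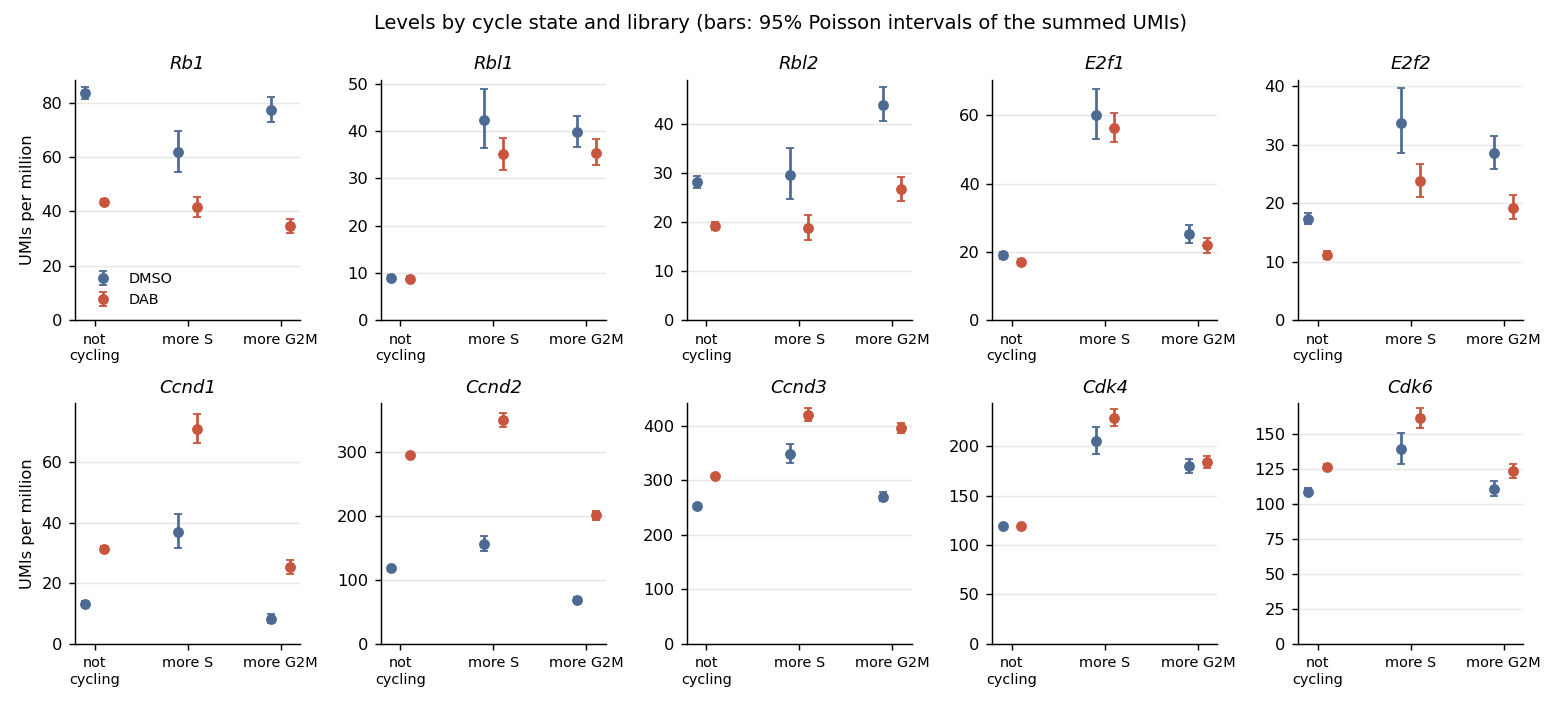
Level of each gene, in CPM, in cells not cycling and in cycling cells with more S phase or more G2M list UMIs, for DMSO and DAB with 95% Poisson intervals (axes start at 0 and differ between panels). E2f1, Ccnd1 and Ccnd2 are lower in the G2M than in the S phase group in both libraries, and Rbl2 is higher.

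All 36 further genes of the pathway, in 5 lists, reached 100 UMIs, and 4 were past the fold on the high side and 9 on the low side, with a median log2 ratio of 0.06. Of all genes tested 13.97% were past the fold on the high side and 16.1% on the low side, with a median of -0.01. Among the CDK inhibitors, which block cyclin D kinases or CDK2, 1 of 7 was higher and 4 were lower. Cdkn2a, which encodes p16INK4a and ARF, gave 740 UMIs or 7.99 CPM in DMSO and 483 UMIs or 3.45 CPM in DAB, a log2 ratio of -1.21 (-1.38 to -1.04). In immature monocyte-like cells it was at 19.1 CPM in DMSO and 6.01 in DAB, and in mature monocyte-like cells at 12.7 and 6.29. Cdkn2c (p18) had a log2 ratio of -0.94 (-1.11 to -0.77), Cdkn2d (p19) of -0.57 (-0.61 to -0.53) and Cdkn1b (p27) of -0.56 (-0.61 to -0.50). Cdkn1c (p57) was higher, from 20 UMIs in DMSO to 149 in DAB. Cdkn1a (p21), at 608 and 626 CPM, had a log2 ratio of 0.04 (0.03 to 0.06).

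Among the other E2F and DP factors, 2 of 8 were higher and 2 lower. The higher ones were E2f4, which is known to repress together with Rbl1 and Rbl2, at 34.4 CPM in DMSO and 54.6 in DAB, and Tfdp1, a DP partner of E2F factors, at 28.7 and 42.1. The lower ones were E2f7 with a log2 ratio of -0.52 (-0.73 to -0.32) and Tfdp2 with -0.68 (-0.86 to -0.49). Of 8 MuvB and Rb-bound chromatin factors, the deacetylase gene Hdac1 was higher, at 43.9 and 71.2 CPM, and Lin37 lower, at 25.5 and 17.98 CPM. Of 8 genes of cyclin D turnover and CDK activation, Fbxo31, which targets cyclin D1 for degradation, was lower with -0.79 (-0.86 to -0.73), and so was Mnat1, of the CDK-activating kinase, with -0.52 (-0.59 to -0.45). Of the 5 genes of cyclin E, cyclin A and CDK2, 0 were past the fold.

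Across the 44 pairs of cluster and library, the genes most like a member were ranked by Pearson correlation of log2(CPM + 1) among 8059 genes. They were Pcnt, Mcmbp and Baz1b for Rbl1 (r from 0.84 to 0.91) and 2700049A03Rik, Rps6ka5 and Tet2 for Rbl2 (r from 0.86 to 0.87). For the E2F factors they were Plod3, Tifab and Dmkn for E2f1 (r from 0.73 to 0.76) and Arhgap15, Chsy1 and Hjurp for E2f2 (r from 0.76 to 0.78). For the cyclins they were Emp2, Prune2 and 4930512J16Rik for Ccnd1 (r from 0.87 to 0.89), Trim35, Mrps6 and Tanc1 for Ccnd2 (r from 0.84 to 0.88) and Lmo1, Prss16 and Spn for Ccnd3 (r from 0.81 to 0.85), and for the kinases Npm3, Thyn1 and Mrpl23 for Cdk4 (r from 0.86 to 0.89) and 2610507B11Rik, Slc30a7 and Ern1 for Cdk6 (r from 0.85 to 0.89). Within the 10 genes the closest pairs were Rb1 with Rbl2 (r = 0.74), Rbl1 with Rbl2 (r = 0.73) and Ccnd1 with Ccnd2 (r = 0.72). The points share their libraries and differ in depth, so these values are descriptions only.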

How the data were processed

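Single-cell RNA was measured in 1 DMSO and 1 DAB library of mouse bone marrow MDSCs. The deposited values are raw UMI counts, not normalized, which the authors made with Cell Ranger 7.0.0 and the mm10 genome. The sources used here do not say whether intronic reads were counted, and such reads would weigh most on long genes. The 10 genes, the pathway lists and the class markers were chosen with earlier results of these data known. All 10 genes are named whatever their values, pathway genes past the fold up to 3 per list, and the 3 genes most like each member, which for Rb1 are not reported here. The further CDK inhibitors and E2F factors and the clusters singled out were named after their values were seen.

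Left out were 55 DMSO and 89 DAB barcodes with more than 10% mitochondrial UMIs, 0 by a limit of 4 median absolute deviations, and 768 and 1066 doublets found by a score against simulated doublets. Clustering used Pearson residuals of 3000 variable genes, 40 principal components, cell cycle regression, mutual nearest neighbours and Leiden at resolution 0.9 (igraph 0.11.9, leidenalg 0.10.2, scikit-learn 1.9.0). A class name needed 3 raised markers. Thinning left out 436 DMSO and 292 DAB cells under 1500 UMIs. Intervals (scipy 1.17.1) are exact at 95%: Poisson for levels, conditional binomial for ratios, Clopper-Pearson for shares. Ratios were tested on simulated data. The alternatives were other filters, scalings, weights, cluster settings, thresholds and depths. Leaving out shared barcodes, clusters H and M or the cells of a finer cluster led by Prg2, and dividing cycling cells by S phase and G2M UMIs, were chosen after seeing the data. So was counting all genes past the fold in every cluster, or in all but 1.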

Additional observations from a re-analysis of the deposited data

Results flagged for a closer look

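Ccnd3 was past the fold in opposite directions in different classes. The log2 ratio of DAB over DMSO was 0.86 (0.81 to 0.92) among immature monocyte-like cells but -0.75 (-1.04 to -0.46) among activated dendritic cell-like cells. The difference was not tested, since there is 1 library per condition.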

How the results depend on the processing

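With 1 library per condition no replicate could be left out. No paired analysis was possible because each group has 1 sample. At a log2 ratio of at least 1, the 5 genes past the fold over all cells became 2, the 13 pathway genes became 2, and the genes called among all tested became 580 higher and 712 lower, from 1861 and 2143. With every cell weighted equally, 59.4% of the genes past the fold were higher in DAB, against 46.5%, the median log2 ratio of all genes was 0.09 and that of Ccnd3 0.04. Classes with Ccnd3 higher went from 2 of 9 to 1 of 8 at resolution 0.5 and 1 of 8 without doublet removal. The former compared no macrophage-like class (75 DAB cells) and the latter no immature monocyte-like class. Without cell cycle regression, where neither class was compared, they went to 0 of 7, those with Ccnd1 higher from 4 of 9 to 2 of 7 and those with a higher Cdk6 share from 5 of 9 to 2 of 7. The share of cycling cells in DMSO and DAB was 22.1% and 21.2% at 2 list UMIs, 9.23% and 7.82% at 5, 24.8% and 22.2% thinned to 3000 UMIs, and 49.5% and 53.1% unthinned, where DAB was the higher one. The cause of the changes in cycling shares was not tested. The other 53 such values stayed within 1.5 times or counting error. Of single-gene ratios, 32 of 80 of cycling over other cells, 9 of 70 over all cells and 2 of 10 in immature monocyte-like cells moved beyond counting error, and 0 that were past the fold reversed.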
